A study of Mus musculus with 9 samples.

Results

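Epithelial-mesenchymal transition (EMT) genes were examined in bulk mRNA from 9 pancreatic tumors of KPC mice: the transcription factors Zeb1, Zeb2, Snai1, Snai2, Twist1, Twist2 and Prrx1, the mesenchymal products Vim and Fn1, and the epithelial splicing factor Esrp1. These 10 genes were taken by symbol from the 54453 rows of a table of estimated mRNA counts, and all 10 were among the 16169 genes that passed the filter on low counts. The tumors were 4 labelled Scrib WT, with the genotype written KPF/+C (tumors 2, 3, 6 and 9), and 5 labelled Scrib null, written KPF/+CSF/F (tumors 7, 14, 15, 18 and 23). Both groups share the KPC background, a Cre-driven mouse model of pancreatic cancer, and the labels write its P as F/+ in both. They differ by the Scrib allele, which the labels write F/F in the null group. Scrib encodes a scaffold of epithelial polarity. The sources used here do not give the promoter that drives Cre, the age of the mice or whether each tumor came from its own mouse. The p-values therefore cover only the spread among these tumors, which may in part be technical.

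EMT is the change by which epithelial cells give up junctions and polarity and take on the shape and cytoskeleton of mesenchymal cells. Snai1 and Snai2 are zinc-finger repressors, Zeb1 and Zeb2 are larger repressors with zinc-finger clusters at both ends, Twist1 and Twist2 are basic helix-loop-helix factors, and Prrx1 is a homeobox factor of limb and connective tissue mesenchyme. Fibroblasts, pericytes, endothelial cells and macrophages carry several of these transcripts in their resting state, so mRNA from a whole pancreatic tumor, which is rich in stroma, holds the signal of both tumor cells and stroma. Fewer cells of a type and less RNA per cell cannot be told apart in such samples.

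The best known brake on the ZEB factors is the miR-200 family, which pairs with their 3′ UTRs, and the sequences are shown because the match sets both Zeb genes apart from the other 8. The mature sequences below are those of RefSeq on GRCm38.p6, with the seed (bases 2 to 8) in capitals; 3 of them share one seed and the other two share the second. MicroRNAs themselves were not measured in these mRNA libraries.
mmu-miR-200b-3p: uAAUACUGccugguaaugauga
mmu-miR-200c-3p: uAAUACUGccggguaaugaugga
mmu-miR-429-3p: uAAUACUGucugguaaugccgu
mmu-miR-200a-3p: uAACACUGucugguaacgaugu
mmu-miR-141-3p: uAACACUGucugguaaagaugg

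The letters that pair with these seeds, CAGTATT and CAGTGTT, were counted on the sense strand of the longest annotated 3′ UTR of each gene (GENCODE M21). Zeb1 held 5 and 4 of them in 2401 bases, and Zeb2 held 5 and 4 in 4941 bases. Of 20999 3′ UTRs, whose median length was 962 bases, 3 held at least as many matches with both kinds added together, and both Zeb genes were among them. At least one match to the first seed was found in 13.3% of these UTRs and to the second in 17.2%. Snai1 held 1 match, Snai2 and Fn1 held 2 each, and Twist1, Twist2, Prrx1, Vim and Esrp1 held 0. The 5 CAGTATT matches of Zeb2 follow, named by the position of their first capital in the UTR, with the match in capitals.
Zeb2 393: gcactaccatacatCAGTATTtt
Zeb2 458: gcactacagtgcatCAGTATTac
Zeb2 820: tgaagcacccgtgtCAGTATTag
Zeb2 905: ttcattaattttgtCAGTATTac
Zeb2 1039: catactgtagtgtaCAGTATTat
A match is a description of the letters and was not tested for binding.

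RefSeq promoter windows of 300 bases, from 250 before to 50 after the start, were at hand for 6 of the 10 genes, in 9 windows. They were searched on both strands for CACCTG, the E-box that Snai and Zeb proteins are known to bind. The window of Snai1 held 1 match and the other 8 held 0, while 20.2% of 32851 windows of the same length held at least one. The Snai1 window is printed because the factor is known to act on its own promoter, with the E-box in capitals, and that of Prrx1 because this gene had the most negative difference between the groups.
Snai1, chr2:167537945-167538244, plus strand, GRCm38.p6: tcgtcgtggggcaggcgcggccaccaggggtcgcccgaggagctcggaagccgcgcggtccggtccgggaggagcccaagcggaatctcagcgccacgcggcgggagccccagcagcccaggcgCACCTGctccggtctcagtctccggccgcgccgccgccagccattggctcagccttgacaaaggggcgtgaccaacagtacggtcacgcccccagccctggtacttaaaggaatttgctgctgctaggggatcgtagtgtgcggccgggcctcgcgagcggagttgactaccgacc
Prrx1, chr1:163313601-163313900, minus strand, GRCm38.p6: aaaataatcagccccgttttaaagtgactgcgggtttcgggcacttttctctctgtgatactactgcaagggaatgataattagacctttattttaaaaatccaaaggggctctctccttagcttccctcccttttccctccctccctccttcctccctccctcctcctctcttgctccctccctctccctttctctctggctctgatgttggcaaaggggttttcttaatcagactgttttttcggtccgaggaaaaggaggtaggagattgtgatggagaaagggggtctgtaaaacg
No match says only that these letters are not in this window.

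The libraries held between 10145830 and 27596832 estimated counts, and WT 2 had the smallest. Levels are given as CPM, the share of a gene in the TMM-scaled total of its tumor. Scrib mRNA spanned 44.1 to 88.6 CPM across WT and 36.9 to 102 CPM across null tumors. The highest value of the 9 tumors was that of null 7, and the other null tumors held 36.9 to 55.5 CPM. The log2 fold change was -0.23 (SE 0.31, edgeR adjusted p = 0.712). Scrib mRNA thus did not set the groups apart. It was counted over the whole gene in tumors that hold stroma, so it cannot check the labels in tumor cells. Every direction is between tumors as labelled. Tumor null 7 had the lowest fibroblast list level of the 9 (2.82 mean log2 CPM, against 5.16 to 7.26), and WT 3 and null 7 were among the lowest 3 tumors for 7 and 8 of the 9 genes other than Esrp1. Of 16169 genes tested between the groups, edgeR's quasi-likelihood test called 2 at a Benjamini-Hochberg adjusted p under 0.05, or 0.0124%, both of them with less mRNA in the null group. At an unadjusted p under 0.05 edgeR listed 7.64% of genes as higher and 10.0% as lower.

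Esrp1 was the member with the clearest difference, and the direction was toward more mRNA in the tumors labelled null. In edgeR 0 of the 10 genes passed the adjusted threshold, and 1, Esrp1, had an unadjusted p under 0.05. DESeq2 called Esrp1 alone among the 10, as higher, where it called 1.15% of 18418 genes higher and 2.24% lower. Limma-voom called 0 of the 10. The median log2 fold change of the 10 was -0.59, beside -0.03 over all genes tested. Of the 10, 8 lay below 0, beside 52.2% of all genes. Among those 8, Fn1 (-0.000419) and Twist1 (-0.13) turned sign in 10 and 7 of 17 alternatives. Zeb1, Zeb2, Snai1 and Prrx1 turned in 2 each, those with a cell type list as covariate, and Snai2 and Vim in 0.

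Esrp1 (ENSMUSG00000040728; chromosome 4, 11331933 to 11386783, GRCm38) encodes an RNA-binding protein that holds many transcripts in their epithelial splice forms and is silenced by ZEB factors. It had 74.6, 37.4, 59.7 and 82.5 CPM in tumors WT 2, WT 3, WT 6 and WT 9. In the null group it had 144.9, 170.0, 84.6, 127.4 and 119.2 CPM in tumors 7, 14, 15, 18 and 23. Every null tumor lay above every WT tumor, although null 15 exceeded WT 9 by little. Groups did not overlap in either direction for 6.91% of all genes tested, and with null above WT for 3.42%. The means were 63.5 ± 19.9 CPM (SD, n = 4) and 129.2 ± 31.7 CPM (SD, n = 5). The log2 fold change was 1.02 (SE 0.28, edgeR adjusted p = 0.201), a ratio of 2.03 with a 95% interval from 1.32 to 3.12. DESeq2 gave 1.04 (SE 0.30, adjusted p = 0.0302). Without both WT 3 and null 7 the edgeR value was 0.83 (adjusted p = 0.345). With the fibroblast list level as a covariate the edgeR value was 1.04, and with the macrophage list it was 1.19. Esrp2, its close relative, had 64.8 ± 12.0 and 58.9 ± 8.82 CPM, with a log2 fold change of -0.14 (SE 0.20, edgeR adjusted p = 0.720).

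**Figure D1:**
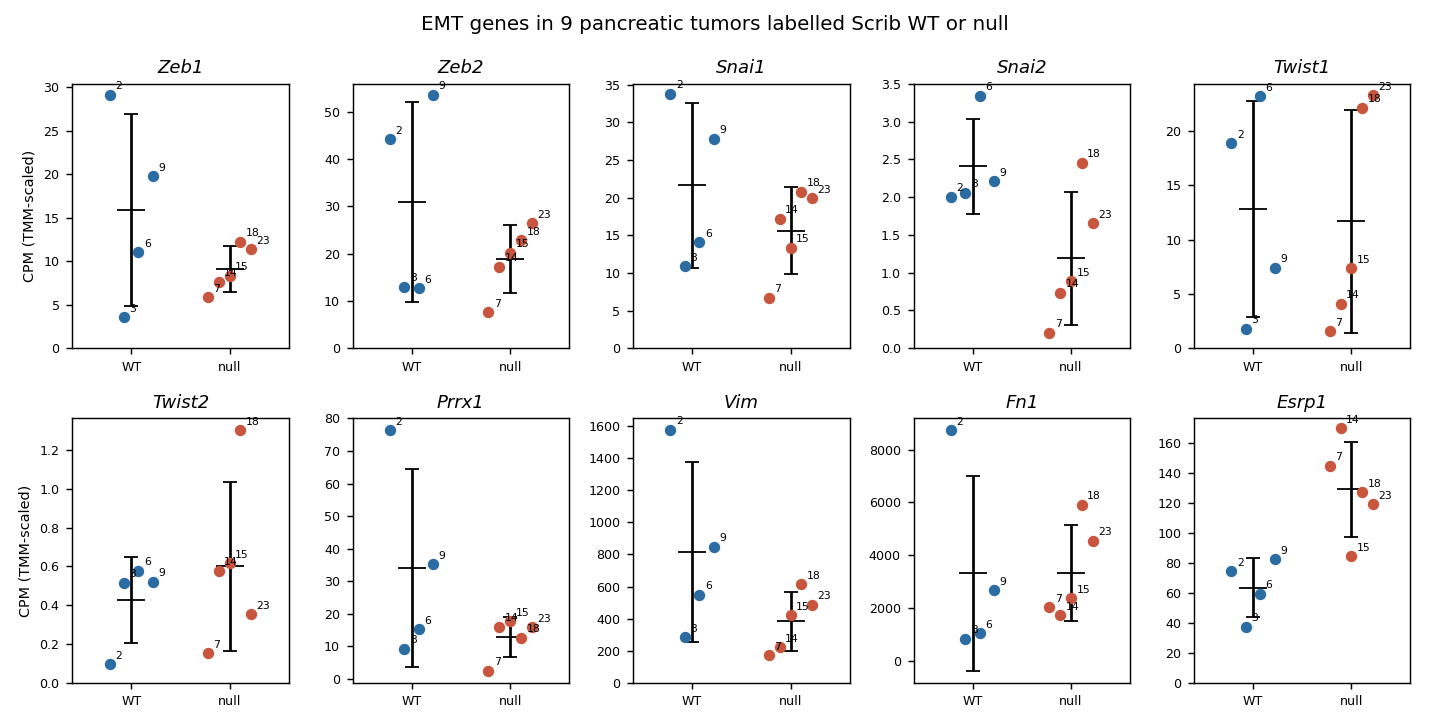
CPM of the 10 EMT genes in each tumor, on linear axes of their own scale; points are tumors with their number, horizontal bars the group means and whiskers 1 SD (n = 4 WT, n = 5 null). Esrp1 is the gene whose groups do not overlap, WT 2 is the highest point for Zeb1, Snai1, Prrx1, Vim and Fn1, and null 7 is the lowest for Zeb2, Snai1, Snai2, Twist1, Prrx1 and Vim.

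Vim (ENSMUSG00000026728; chromosome 2, 13573927 to 13582826) encodes vimentin, the intermediate filament of mesenchymal cells, endothelium and leukocytes. It had 1577, 283, 548 and 848 CPM in tumors WT 2, WT 3, WT 6 and WT 9. The null tumors 7, 14, 15, 18 and 23 had 173.6, 222.7, 422.2, 614.3 and 487.3 CPM. The groups overlapped, with 2 of the null tumors below every WT tumor and WT 2 above the rest. The log2 fold change was -1.08 (SE 0.51, edgeR adjusted p = 0.293), and without WT 2 it was -0.54.

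Fn1 (ENSMUSG00000026193; chromosome 1, 71585520 to 71653200) encodes fibronectin, a matrix glycoprotein that tumor cells, fibroblasts and macrophages secrete. Its levels were 8727, 845, 1046 and 2678 CPM in tumors WT 2, WT 3, WT 6 and WT 9. The null tumors held 2043, 1726, 2382, 5910 and 4553 CPM in the order 7, 14, 15, 18 and 23. WT 2 had more than 3 times the level of any other WT tumor, and the 2 group means were the same to within 1 CPM, 3324 and 3323. The log2 fold change was -0.000419 with a wide 95% interval, from -1.503 to 1.502 (edgeR adjusted p = 0.9998), and it was 1.13 without WT 2 (edgeR adjusted p = 0.254). The sign for Fn1 turned with RLE scaling (0.022). That for Vim was negative under each of 17 alternatives. The Vim value was close to 0 with the fibroblast (-0.05) or the macrophage list level (-0.02) as a covariate.

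The ZEB factors were low in CPM and varied more within the WT group than within the null group. Zeb1 (ENSMUSG00000024238; chromosome 18, 5591860 to 5775467) had 29.1, 3.52, 11.1 and 19.8 CPM in tumors WT 2, WT 3, WT 6 and WT 9, against 5.85, 7.63, 8.32, 12.3 and 11.4 CPM in null tumors 7, 14, 15, 18 and 23. Its lowest and highest tumors were both labelled WT. The log2 fold change was -0.80 (SE 0.50, edgeR adjusted p = 0.402). Zeb2 (ENSMUSG00000026872; chromosome 2, 44983632 to 45117395), which macrophages also use, had 44.2, 13.0, 12.6 and 53.6 CPM in the WT tumors in that order. The null tumors had 7.62, 17.2, 20.2, 22.8 and 26.4 CPM. WT 2 and WT 9 lay above all null tumors and WT 3 and WT 6 lay below 4 of them, with a log2 fold change of -0.71 (SE 0.49, edgeR adjusted p = 0.449). The antisense gene Zeb2os overlaps Zeb2 and reached 7.13 CPM, and the sources used here do not say whether the libraries kept strand.

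Snai1, or Snail (ENSMUSG00000042821; chromosome 2, 167538195 to 167542814), had 33.8, 10.9, 14.1 and 27.9 CPM in tumors WT 2, WT 3, WT 6 and WT 9. The null tumors 7, 14, 15, 18 and 23 had 6.71, 17.2, 13.4, 20.8 and 19.9 CPM. The groups overlapped and the log2 fold change was -0.47 (SE 0.41, edgeR adjusted p = 0.547). Snai2, or Slug (ENSMUSG00000022676; chromosome 16, 14705852 to 14709385), rested on 4 to 87 counts per tumor. It had 2.01 to 3.35 CPM in the WT group and 0.202, 0.736, 0.890, 2.46 and 1.66 CPM in null tumors 7, 14, 15, 18 and 23. All null tumors but tumor 18 lay below the whole WT range, and the log2 fold change was -1.01 (SE 0.60, edgeR adjusted p = 0.377).

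Twist1 (ENSMUSG00000035799; chromosome 12, 33957671 to 33959829) split the tumors without regard to their label. It was high, 18.9 to 23.3 CPM, in tumors WT 2, WT 6, null 18 and null 23, intermediate at 7.42 and 7.39 CPM in WT 9 and null 15, and low in null 14 (4.10 CPM), WT 3 (1.80 CPM) and null 7 (1.56 CPM). The log2 fold change was -0.13 (SE 0.82, edgeR adjusted p = 0.944), with a 95% interval from -1.96 to 1.69. Twist2 (ENSMUSG00000007805; chromosome 1, 91801461 to 91848028), with 1 to 35 counts per tumor, was near the floor of detection at 0.0955 to 1.30 CPM. Its log2 fold change was 0.45 (SE 0.66, edgeR adjusted p = 0.729). The antisense gene Gm29100 overlaps Twist2 and reached 2.74 CPM, above Twist2 itself, so the Twist2 values are uncertain.

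Prrx1 (ENSMUSG00000026586; chromosome 1, 163245119 to 163313710) spanned the widest range of the 10 genes, 31.5-fold from tumor to tumor. It had 76.3, 9.19, 15.3 and 35.2 CPM in tumors WT 2, WT 3, WT 6 and WT 9, and 2.42, 15.99, 17.6, 12.6 and 15.9 CPM in null tumors 7, 14, 15, 18 and 23. Apart from WT 2, WT 9 and null 7, the remaining 6 tumors lay within 9.19 to 17.6 CPM. The log2 fold change was -1.39 (SE 0.64, edgeR adjusted p = 0.289), or -0.62 without WT 2. Its relative Prrx2 averaged 45.6 CPM over WT and 38.4 CPM over null tumors (edgeR adjusted p = 0.823).

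**Figure D2:**
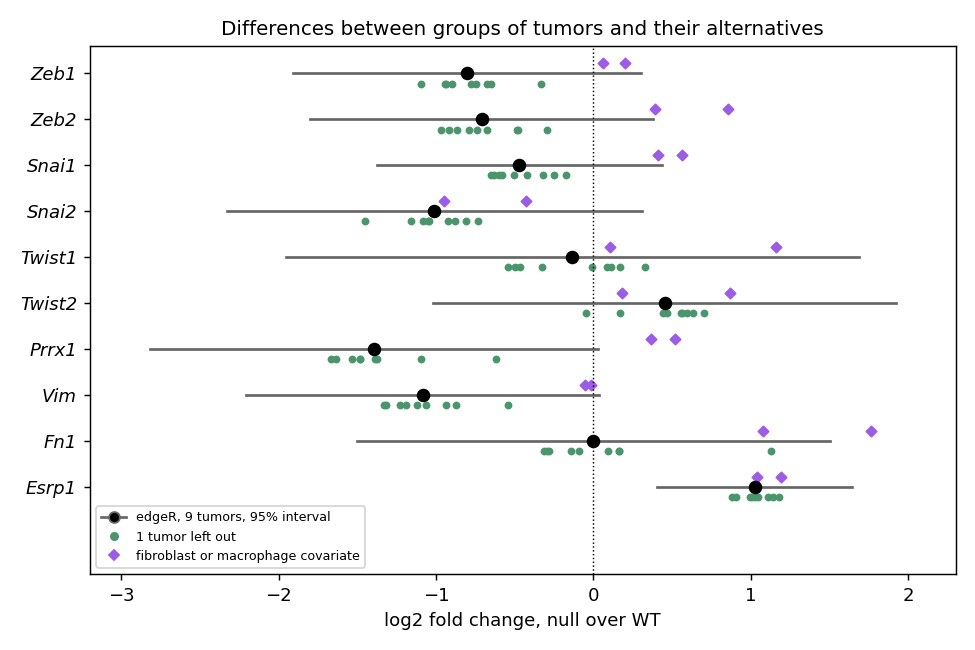
Log2 fold change, null over WT, of the 10 EMT genes: black points with lines are the edgeR estimates over 9 tumors with 95% intervals, green points the values with 1 tumor left out, and purple diamonds those with a fibroblast or macrophage list level as covariate. The interval of Esrp1 alone lies to one side of 0, and the covariates move Zeb1, Zeb2, Snai1, Twist1, Prrx1 and Fn1 to positive values.

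Stromal marker lists had lower mean levels in the null group, as Vim and Prrx1 did, and none of the 4 passed the adjusted threshold. All 12 fibroblast markers tested and all 11 macrophage and monocyte markers lay below 0, as did 9 of 10 pericyte and smooth muscle and 9 of 10 endothelial markers. The summed level of the fibroblast markers spanned 2237 to 9498 CPM over WT and 370.7 to 4612 CPM over null tumors. That of the macrophage markers was 2162 to 4035 and 1057 to 2452 CPM. For pericytes and smooth muscle it was 305.9 to 620 and 87.1 to 398.1 CPM, and for endothelium 393.4 to 768.8 and 93.3 to 421.4 CPM. No marker of these 4 lists was under 0.5 CPM in every tumor. The mean log2 CPM of the fibroblast list was 6.56 ± 0.76 (SD, n = 4) and 5.02 ± 1.33 (SD, n = 5), with an exact two-sided permutation p of 0.0556 (0.153 adjusted over 11 cell type lists). The adjusted exact permutation p was 0.153 for macrophages, 0.192 for endothelium and 0.287 for pericytes and smooth muscle. The list differences, null minus WT, leaned on null 7. Without it fibroblasts went from -1.54 to -0.98 and macrophages from -0.87 to -0.68 mean log2 CPM. Endothelium went from -0.83 to -0.41, and pericytes and smooth muscle from -0.82 to -0.37. As log2 of summed CPM, the fibroblast difference over all tumors was -1.02 (adjusted exact permutation p = 0.398). The fibroblast receptor Pdgfra had 25.1 ± 18.4 and 20.4 ± 20.0 CPM, and decorin, Dcn, had 144.2 ± 70.4 and 78.2 ± 91.9 CPM.

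The tumor epithelium list did not move with these, at 10.08 ± 0.22 (n = 4) against 10.09 ± 0.33 (n = 5) mean log2 CPM (two-sided exact permutation p = 0.960), and Epcam had 1218 ± 182 and 1264 ± 206 CPM. The labelled tissue therefore carried its epithelial markers in both groups. The defining markers of Schwann cells were close to absent, with Sox10, Foxd3 and Cdh19 under 0.5 CPM in every tumor. With the fibroblast list level as a covariate in edgeR, the log2 fold change was -0.05 for Vim, 0.06 for Zeb1, 0.39 for Zeb2, 0.41 for Snai1, 0.36 for Prrx1, 1.08 for Fn1, -0.43 for Snai2, 1.16 for Twist1 and 0.87 for Twist2. With the macrophage list it was -0.02 for Vim, 0.20 for Zeb1, 0.85 for Zeb2, 0.56 for Snai1, 0.52 for Prrx1, 1.76 for Fn1, -0.95 for Snai2, 0.10 for Twist1 and 0.18 for Twist2. None of these passed the adjusted threshold. The part of each cell type in the levels was not tested further.

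**Figure D3:**
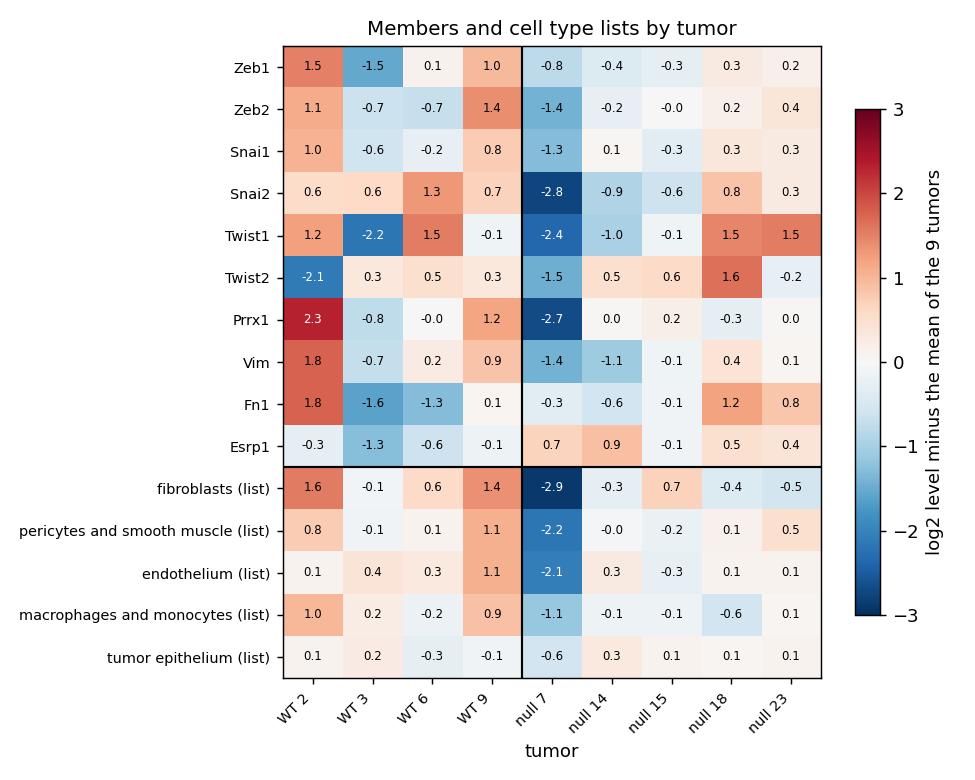
Log2 level of each EMT gene (log2 CPM) and of 5 cell type lists (mean log2 CPM) in each tumor, minus the mean of the 9 tumors, on a colour scale from -3 to 3 with the WT tumors left of the vertical line. WT 2 and WT 9 are above the mean for most factors and for the fibroblast list, null 7 is below it for the 9 genes other than Esrp1 and for all 5 lists, and Esrp1 alone is above the mean in 4 of the 5 null tumors and below it in all WT tumors.

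The factors were compared with each other across the 9 tumors, as log2 CPM. Of 45 pairs of the 10 genes, 9 had a Pearson correlation that passed an exact two-sided permutation test adjusted over the pairs, all positive, and 3 passed with Spearman's rho. Zeb1 and Vim had r = 0.89 (exact permutation p = 0.00176, adjusted p = 0.0218) and rho = 0.93 (exact permutation p = 0.000750, adjusted p = 0.0169). Without WT 2 and WT 3, the tumors farthest from the median of Zeb1, their r was 0.94, and after centring on the group means it was 0.91 (exact permutation p = 0.000694, adjusted p = 0.0234). Zeb2 and Snai1 had r = 0.94 and rho = 0.88 (exact permutation p = 0.000317 and 0.00308, adjusted p = 0.0143 and 0.0461), with r = 0.91 without WT 9 and null 7. Zeb1 and Snai1 had r = 0.86 and rho = 0.93 (exact permutation p = 0.00389 and 0.000750, adjusted p = 0.0250 and 0.0169), with r = 0.87 without WT 2 and WT 3. The other pairs that passed were Zeb1 with Zeb2, Zeb2 with Prrx1 and with Vim, Snai1 with Prrx1 and with Vim, and Prrx1 with Vim, with r from 0.82 to 0.92. In each of the 9 pairs r stayed positive without its 2 farthest tumors, from 0.60 to 0.94, and Zeb1 with Vim alone of the 9 still passed at that smaller size (adjusted p = 0.0179).

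Esrp1 passed with none of the 9 other genes. Its r was 0.12 with Zeb1 and rho was -0.12 (exact permutation p = 0.751 and 0.776, adjusted p = 0.938 and 0.948), and r was -0.50 without WT 2 and WT 3 and 0.62 after centring on the group means (exact permutation p = 0.258 and 0.156), so its sign turned with the setting. With Snai2 it was -0.57, and -0.17 after centring (exact permutation p = 0.108 and 0.656). WT 3 had both the least Zeb1 and the least Esrp1 of the 9 tumors. Snai2, Twist1, Twist2 and Fn1 did not pass with any other member either. Depth and the make-up of the tissue are shared by all genes of a tumor, so these values describe the tumors and not links between genes.

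Among 50 relations of the 10 genes with 5 cell type lists, 5 passed the exact permutation test adjusted over the 50. Prrx1 went with the fibroblast list (r = 0.92, rho = 0.78, exact permutation p = 0.000860 and 0.0172, adjusted p = 0.0143 and 0.172), the pericyte and smooth muscle list (r = 0.89, rho = 0.62, exact permutation p = 0.00358 and 0.0857, adjusted p = 0.0358 and 0.330) and the macrophage list (r = 0.89, rho = 0.70, exact permutation p = 0.00288 and 0.0432, adjusted p = 0.0358 and 0.309). Each of the last 2 had r = 0.76 without its 2 farthest tumors. Without WT 2 and null 7 the r of Prrx1 with fibroblasts was 0.73 and did not pass over the 7 tumors that remained (adjusted p = 0.312). It was 0.83 without WT 3 and null 7 and 0.91 after centring on the group means, which did not pass either (adjusted p = 0.106 and 0.0521). Snai1 and Zeb2 went with the pericyte and smooth muscle list (r = 0.90 and 0.86, exact permutation p = 0.000515 and 0.000413, adjusted p = 0.0129 for both), with rho = 0.93 and 0.85 (exact permutation p = 0.000750 and 0.00607, adjusted p = 0.0375 and 0.0759), and r was 0.87 and 0.81 without WT 9 and null 7. Fn1 had r = 0.19 with fibroblasts and 0.26 with macrophages, and neither passed.

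**Figure D4:**
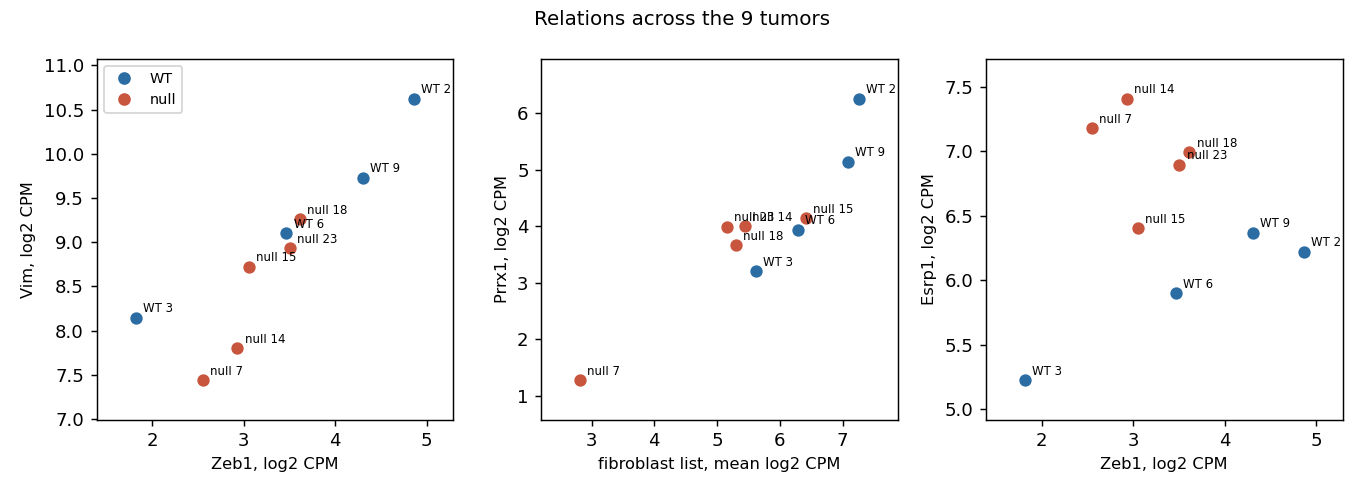
Levels in the 9 tumors for Zeb1 against Vim, the fibroblast list against Prrx1, and Zeb1 against Esrp1, in log2 CPM without a prior count (the list as mean log2 CPM), with WT tumors in blue and null tumors in red. Zeb1 and Vim lie along one line (r = 0.89), null 7 stands alone at the low end of the fibroblast list, and for Zeb1 against Esrp1 the null tumors lie above the WT tumors on the Esrp1 axis (r = 0.12 over the 9 tumors, 0.62 after centring on the group means).

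Per kilobase of exon, the order of mean levels was Fn1 (284 ± 223 CPM per kb, SD over 9 tumors), Vim (121 ± 90.8), Esrp1 (15.9 ± 6.82), Snai1 (11.3 ± 5.22), Twist1 (7.502 ± 5.84), Prrx1 (2.01 ± 1.99), Zeb2 (1.21 ± 0.768), Zeb1 (1.18 ± 0.769), Snai2 (0.856 ± 0.482) and Twist2 (0.165 ± 0.110). Neighbours were compared within tumors with an exact two-sided sign-flip permutation test, adjusted over the 9 steps. Fn1 exceeded Vim in 8 of 9 tumors (adjusted p = 0.0352). Vim exceeded Esrp1, Twist1 exceeded Prrx1 and Snai2 exceeded Twist2 in 9 of 9 tumors (exact permutation p = 0.00391, the smallest 9 tumors allow, adjusted p = 0.0117). The steps from Esrp1 to Snai1 (0.211), Snai1 to Twist1 (0.0844), Prrx1 to Zeb2 (0.141), Zeb2 to Zeb1 (0.793) and Zeb1 to Snai2 (0.228) did not pass. Exon length was the union of all annotated exons, which understates genes with long rarely used exons.

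Paralogs could share reads only over short stretches. The longest identical run between transcripts was 35 bases for Zeb1 and Zeb2, 23 for Snai1 and Snai2, 23 for Twist1 and Twist2 and 19 for Prrx1 and Prrx2.

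For each of the 10 genes the 3 genes with the most similar log2 CPM over the 9 tumors were named, by Pearson r as a description chosen as the largest over all named genes tested. Zeb1 was closest to Palld, an actin-bundling protein (r = 0.967), Wdfy1 (0.966) and Tln2, a talin (0.962). Zeb2 was closest to the matricellular gene Ccn4 (0.983), the hyaluronan-degrading factor Cemip (0.982) and Kctd12 (0.980). Snai1 was closest to the chemerin receptor Cmklr1 (0.983), Kif26b (0.981) and Gpr153 (0.979). Snai2 was closest to Arap3 (0.967), the collagen-binding integrin Itga1 (0.964) and the dermatan sulfate epimerase Dse (0.961). Prrx1 was closest to Plxdc2 (0.988), Coro2b (0.984) and Pip4k2a (0.983), and Vim to Arhgap24 (0.959), Lix1l (0.955) and Leprot (0.954).

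Twist1 was closest to the zinc-finger factor Sp5, a Wnt target (0.984), Epha7 (0.952) and Iqgap2 (0.941). Fn1 was closest to Sned1, an extracellular matrix protein (0.984), Sidt2 (0.973) and the endoplasmic reticulum stress kinase Eif2ak3 (0.968). Twist2 was closest to Ccng2 (0.911), Ripk4 (0.888) and Tec (0.881). Esrp1 was closest to the zinc-finger gene Plagl1 (0.981), Rcan3 (0.980) and Zfp827 (0.977), whose log2 fold changes were 1.62, 0.80 and 0.73 (edgeR adjusted p from 0.214 to 0.229).

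Downstream mesenchymal genes leaned the way of Vim. Of 18 effectors, all tested, 15 had a log2 fold change below 0 and 3 above, with a median of -0.79. Over all genes tested 52.2% lay below 0. Leaving out 1 tumor moved the median between -1.004 (without null 23) and -0.41 (without WT 2), and it was -0.50 without null 7. In edgeR 0 passed over all genes and 3 had an unadjusted p under 0.05, all with less mRNA in the null group. DESeq2 and limma-voom called 0. Over all genes 10.0% were lower at that unadjusted p. The matrix protein gene Sparc had 2046 ± 574 CPM (SD, n = 4) against 915 ± 435 CPM (SD, n = 5) in null tumors, and the groups did not overlap (edgeR adjusted p = 0.262). Tagln, an actin-binding protein of contractile cells, had 249.6 ± 65.6 and 100.7 ± 58.6 CPM, also with no overlap (edgeR adjusted p = 0.273). Non-overlapping groups with null below WT made up 3.49% of all genes. Fibrillin-1, Fbn1, had 158.2 ± 58.7 and 70.7 ± 37.7 CPM and S100a4 had 102.6 ± 74.5 and 42.5 ± 41.5 CPM. N-cadherin, Cdh2, had 19.5 ± 22.1 and 10.3 ± 7.21 CPM (edgeR adjusted p = 0.571). Its higher WT mean rested on WT 2, at 51.9 CPM. The other WT tumors held 2.15 to 13.1 CPM, within the null range of 1.41 to 15.8 CPM. Null 7 was the lowest of the 9 tumors for Sparc, Tagln, Fbn1 and Cdh2, and null 23 was the lowest for S100a4. The fibroblast list level differed by -1.54 mean log2 CPM between the same groups, and its part in these values was not tested.

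Epithelial genes that the factors are known to repress were split. Of 19, 13 lay above 0 and 6 below, with a median log2 fold change of 0.10. In edgeR 0 passed and 3 had an unadjusted p under 0.05, all with more mRNA in the null group. DESeq2 and limma-voom called 0. Over all genes, 7.64% were higher at that unadjusted p and 3.42% had null above WT with no overlap. The membrane protease gene St14 had 181.7 ± 53.4 and 283.5 ± 31.5 CPM with no overlap (edgeR adjusted p = 0.237). The desmosomal plakophilin Pkp3 had 63.8 ± 9.08 and 102.1 ± 34.3 CPM, the claudin Cldn3 had 190.2 ± 48.7 and 294.9 ± 66.4 CPM, and the channel-activating protease Prss8 had 28.3 ± 8.71 and 40.3 ± 6.63 CPM. E-cadherin, Cdh1, had 723.5 ± 131 and 911.6 ± 218 CPM (edgeR adjusted p = 0.504).

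The guardians of the epithelial state, factors that oppose EMT, had 8 of 12 tested members above 0 and a median of 0.22. With 1 tumor left out that median ran from 0.04 without WT 2 to 0.34 without null 18. In edgeR 0 passed, and DESeq2 and limma-voom called 0. At an unadjusted p under 0.05 edgeR listed 1 as higher, beside 7.64% of all genes. That one was Grhl2, a grainyhead factor that sustains junction genes, with 29.6 ± 14.8 and 56.6 ± 7.77 CPM (log2 fold change 0.93, SE 0.31, edgeR adjusted p = 0.222). Its relatives Grhl1 and Grhl3 had log2 fold changes of 0.46 and 1.17, and Ehf had 0.47. Ovol1 and Ovol2, repressors of the ZEB genes, had 5.51 ± 3.96 and 6.42 ± 3.73 CPM and 5.53 ± 1.56 and 6.56 ± 2.40 CPM (edgeR adjusted p = 0.841 and 0.733).

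Genes for the corepressors and binding partners of the factors had 12 of 16 members above 0 and a median of 0.31. In edgeR 0 passed, with 3 higher and 1 lower at an unadjusted p under 0.05, and DESeq2 and limma-voom called 0. Over all genes, 7.64% were higher and 10.0% lower at that p. Groups did not overlap with null above WT for 3.42% of all genes and below WT for 3.49%. The corepressor scaffold Sin3a, which Snai1 recruits, had 55.1 ± 11.3 and 92.3 ± 21.4 CPM with no overlap (edgeR adjusted p = 0.213). The remodeling ATPase Smarca4 had 136.9 ± 63.0 and 264.4 ± 44.3 CPM and the histone demethylase Kdm1a had 96.7 ± 11.3 and 134.5 ± 25.5 CPM. Id3, an inhibitor of the partners of Twist proteins, went the other way with 56.1 ± 1.31 and 31.7 ± 12.9 CPM and no overlap (edgeR adjusted p = 0.224).

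Genes that set the stability of the proteins had 11 of 13 tested members above 0 and a median of 0.32. With 1 tumor left out that median ran from 0.15 without WT 3 to 0.49 without WT 9. In edgeR 0 passed and 3 had an unadjusted p under 0.05, all higher in the null group. DESeq2 called 2 as higher and limma-voom called 0. Over all genes, 7.64% were higher at that unadjusted p, and DESeq2 called 1.15% higher. Groups did not overlap with null above WT for 3.42% of all genes. Fbxl14, a ubiquitin ligase adaptor that marks Snail and Twist proteins for degradation, had 48.7 ± 7.97 and 83.4 ± 18.8 CPM with no overlap (edgeR adjusted p = 0.201, DESeq2 adjusted p = 0.0477). Usp27x, a deubiquitinase of Snail, had 6.00 ± 0.66 and 12.5 ± 4.11 CPM with no overlap (edgeR adjusted p = 0.208, DESeq2 adjusted p = 0.0332). The kinase Atm had 10.4 ± 2.82 and 20.1 ± 7.72 CPM, and the ligase adaptor Fbxo45 had 23.4 ± 3.38 and 31.8 ± 5.44 CPM.

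Other EMT-linked factors had 7 of 10 tested members above 0 and a median of 0.69. With 1 tumor left out that median ran from 0.39 without WT 3 to 0.84 without WT 2. In edgeR 0 passed, with 2 higher and 1 lower at an unadjusted p under 0.05, while DESeq2 called 1 as lower and limma-voom called 0. Over all genes, 7.64% were higher and 10.0% lower at that p, and DESeq2 called 2.24% lower. Groups did not overlap with null above WT for 3.42% of all genes and below WT for 3.49%. Tcf21, a factor of resting stroma, had 2.13 ± 0.731 and 0.488 ± 0.329 CPM with no overlap (edgeR adjusted p = 0.201, DESeq2 adjusted p = 0.0191). The AP-1 subunit Fosl1 had 15.95 ± 4.04 and 34.9 ± 13.9 CPM with no overlap (edgeR adjusted p = 0.208). Sox4 had 198.6 ± 75.8 and 335.5 ± 85.1 CPM, and Runx2 had 16.9 ± 7.15 and 27.3 ± 9.41 CPM.

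**Figure D5:**
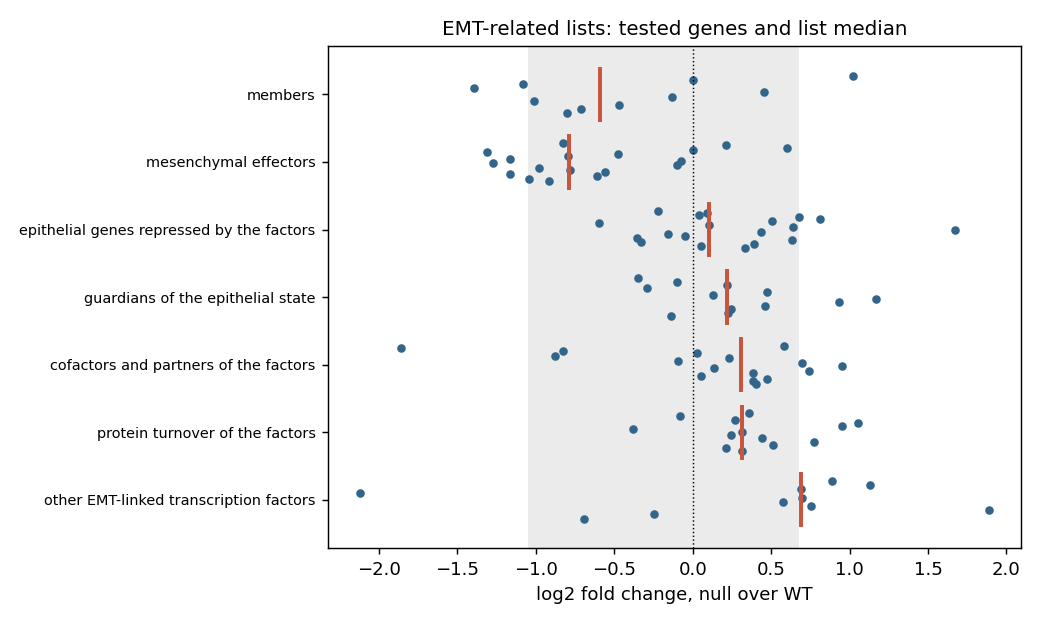
Log2 fold change, null over WT, of every tested gene of the 10 EMT genes (members) and of 6 related lists; points are genes, red bars the list medians, and the grey band spans the 10th to 90th percentile of all 16169 genes (-1.04 to 0.67). The median is negative for the members (-0.59) and the mesenchymal effectors (-0.79) and positive for the other lists, from 0.10 to 0.69.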

How the data were processed

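RNA was measured in 9 whole pancreatic tumors. The authors deposited one table of estimated counts per gene, partly fractional and not normalized. Salmon 1.4.0 and DESeq 2 and the builds GRCm38 and mm10 are named in the submitters' processing notes, and the sources used here name no annotation release. Of 54453 rows, 54200 were given a symbol from GENCODE M21 (GRCm38).

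Estimated counts were rounded. The filter on low counts was filterByExpr (at least 10 counts, total at least 15), and 16169 were tested with edgeR 4.0.16 (R 4.3.3), quasi-likelihood, TMM, no covariate, with Benjamini-Hochberg adjustment over all of them and a threshold of 0.05. SE was the log2 fold change over the square root of F. Log2 CPM had a prior count of 2. Alternatives were RLE scaling, other filters, DESeq2 1.42.0, limma-voom (limma 3.58.1) with array weights, covariates and tumors left out. The common biological coefficient of variation was 0.494. The scripts were tested on simulated data.

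The 10 genes and all lists were chosen with earlier results of these data known. Named were all 10 genes, the 3 nearest genes per member and up to 4 genes of smallest edgeR p from each pathway list. Cdh1, Cdh2, Esrp2, Ovol1, Ovol2 and Grhl2 were named whatever their p. The first 2 markers of each cell type list were planned, and only those of fibroblasts, tumor epithelium and adipocytes are both given. Prrx2, Scrib, Fabp4, the overlapping antisense genes and the markers near absence were named after their values were seen. Dub3 and Tbxt matched no symbol. Of 11 cell type lists, T cells, neutrophils, mesothelium, acinar cells and adipocytes are given in the closing section.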

Additional observations from a re-analysis of the deposited data

Results flagged for a closer look

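In 42 groups of values (10 genes and 11 cell type lists in each group), 7 held a tumor far from the rest by Dixon's criterion, and chance flags about 1 in 20. For Snai2, tumor WT 6 held 3.35 CPM and the other WT tumors 2.01 to 2.21 CPM. Twist2 was 0.0955 CPM in WT 2, a value that rests on 1 count. In null 7 the list of pericytes and smooth muscle (2.10 mean log2 CPM), that of endothelium (2.70) and that of tumor epithelium (9.52) were each the lowest of their group. The acinar list was 3.74 in WT 6, and the Schwann cell list, 3 of whose 6 markers were under 0.5 CPM in every tumor, was -1.75 in WT 3.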

How the results depend on the processing

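No paired analysis was possible because the groups share no replicate number. The 2 genes called over all genes became 7 without a filter, 625 with DESeq2, 6 with limma-voom and 0 with the fibroblast covariate, with the macrophage covariate or without both WT 3 and null 7. They were 0 to 1 with each tumor left out. Of the 10 genes, 1 (Esrp1) was called with DESeq2 and 0 under the other alternatives. Its log2 fold change ran from 0.83 to 1.19 over 17 alternatives (edgeR, DESeq2 or limma-voom adjusted p from 0.0302 to 0.363). Over all 10 genes 142 of 169 values kept their sign and call, and 26 turned sign. With the fibroblast and the macrophage covariate, Zeb1 was 0.058 and 0.201, Zeb2 0.389 and 0.855, Snai1 0.409 and 0.564, Prrx1 0.363 and 0.519 and Fn1 1.08 and 1.76. The other values that turned were Twist1 with the fibroblast (1.16) and macrophage covariate (0.10) and with limma-voom (0.16). Twist1 was 0.11 without WT 2, 0.33 without WT 6, 0.17 without null 7 and 0.08 without null 14, with a range of -0.54 to 0.33 over tumors left out. Twist2 was -0.045 without null 18 and 0.703 without null 7, the ends of its range. Fn1 was 0.022 with RLE scaling, 0.073 without a filter, 0.033 with DESeq2, 0.44 with limma-voom, 1.13 without WT 2, 0.16 without null 7, 0.16 without null 14 and 0.10 without null 15, with a range of -0.31 to 1.13. The cause was not tested. With tumors left out, the tumor epithelium list difference ran from -0.078 to 0.15 and the acinar one from -0.71 to 1.24. Relations that passed numbered 9 of 45 pairs, against 2 without the 2 farthest tumors, 2 centred on group means and 1 without WT 3 and null 7, with Zeb1 and Vim passing in each and Zeb2 with Fn1 added in the first. They numbered 5 of 50 with cell type lists, against 0 in each of these. These alternatives use fewer tumors or fewer orders of them. Estimated counts of 1 to 87 limit Twist2 and Snai2.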

Other observations

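The log2 ratio of Cdh1 to Vim CPM was -0.94, 1.02, 0.25 and -0.01 in tumors WT 2, WT 3, WT 6 and WT 9, and 1.76, 1.82, 1.33, 0.77 and 1.15 in null tumors 7, 14, 15, 18 and 23. WT 3 alone of the WT tumors lay within the null range. The log2 ratio of Esrp1 to Zeb1 was 1.36, 3.41, 2.43 and 2.06 in the WT and 4.63, 4.48, 3.35, 3.38 and 3.39 in the null tumors, again with WT 3 within the null range. The log2 ratio of Esrp1 to Esrp2 was -0.07 ± 0.74 (SD, n = 4) and 1.11 ± 0.45 (SD, n = 5). These ratios were chosen among genes whose values were known and were given no test.

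Of the cell type lists not described above, the adipocyte list was 1.97 ± 1.43 mean log2 CPM (SD, n = 4) in the WT and -0.79 ± 0.73 (SD, n = 5) in the null group (exact two-sided permutation p = 0.00794, the smallest possible, adjusted p = 0.0873). Of its 6 markers, 5 were detected and 3 passed the filter on low counts. Lep was detected in 0 tumors, Adipoq had 0 to 6.19 CPM and Plin1 at most 0.669 CPM. Fabp4 averaged 103 CPM over WT and 16.3 CPM over null tumors. T cell markers were at -0.13 ± 0.46 and -1.16 ± 0.63 (exact permutation p = 0.0317, adjusted p = 0.153). These were low, with a summed level of 5.4 to 12.5 CPM over WT and 2.9 to 8.7 CPM over null tumors. Neutrophil markers were at 5.12 ± 1.27 and 3.98 ± 0.97, mesothelial markers at 2.88 ± 1.13 and 2.11 ± 1.89, and acinar markers at -0.06 ± 2.56 and -0.09 ± 1.94, none of which passed.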
